A study of Homo sapiens with 8 samples.

Results

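The genes described are SELENOW, SELENOH, GPX1 and GPX3, the 4 selenoprotein genes among the 187 genes of the table that the authors deposited for NCI-H295R cells deprived of serum. NCI-H295R is a human adrenocortical carcinoma line that makes adrenal steroids. The genes were taken by name from that table, and 4 of the 25 human selenoprotein genes on the list used here were in it. There were 4 serum-deprived libraries and 4 control libraries of polyadenylated RNA, and each group was numbered from replicate 1 to 4. The serum-deprived cells were kept in DMEM-F12 with glutamine, HEPES and penicillin-streptomycin, without NU-I serum and without the ITS supplement of insulin, transferrin and selenium. The control cells had the same medium with serum and ITS. Selenium, insulin, transferrin and serum were therefore removed together, and no library lacked selenium alone, so the parts played by each cannot be told apart. How long serum was withheld is not stated in the labels.

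The table holds only genes that the authors had selected as changed between these groups, and a gene outside it was not analysed here. A library held 262373 to 359195 estimated counts over the tabulated genes, a portion of its depth, which is unknown. The adrenocortical genes HSD3B2, MRAP and DLK1 were detected in all 8 libraries, with lowest scaled counts of 379, 33.1 and 46129. Replicate 1 stood apart in both groups, with Spearman correlations across genes of 0.919 to 0.927 to the other serum-deprived libraries and of 0.947 to 0.950 to the other control libraries, against 0.969 to 0.979 among the other serum-deprived libraries and 0.977 to 0.987 among the other controls.

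Selenoproteins carry selenocysteine, an amino acid that is inserted at an in-frame UGA codon, which otherwise ends translation. Insertion needs a selenocysteine-charged tRNA and a stem-loop in the 3′ untranslated region, called the SECIS element, which recruits the dedicated elongation factor. When selenium is scarce, the UGA can be read as a stop codon, and a message with an exon junction well downstream of that codon is then open to nonsense-mediated decay. Selenium supply is known to set the level of some selenoprotein messages and to leave others little changed, an order referred to as the selenoprotein hierarchy. The adrenal cortex makes steroids with mitochondrial and microsomal cytochromes P450, a process that yields reactive oxygen species, and glutathione peroxidases are among the enzymes that remove peroxides there.

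The bases around the selenocysteine codon are shown because this codon is what the 4 messages have in common. Each window is taken from a GENCODE 29 transcript (GRCh38), runs 5′ to 3′ along the message with 30 coding bases on either side, and has the selenocysteine codon in capitals, written with T for U.
SELENOW: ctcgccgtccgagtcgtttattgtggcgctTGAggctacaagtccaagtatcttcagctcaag
SELENOH: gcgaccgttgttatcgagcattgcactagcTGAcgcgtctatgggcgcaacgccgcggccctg
GPX1: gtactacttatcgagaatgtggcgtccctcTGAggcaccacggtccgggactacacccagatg
GPX3: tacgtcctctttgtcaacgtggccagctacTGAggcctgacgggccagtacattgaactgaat
The codon lies at chr19:47780732-47780734 on the plus strand in SELENOW, at chr11:57741816-57741818 on the plus strand in SELENOH, at chr3:49358132-49358134 on the minus strand in GPX1 and at chr5:151025469-151025471 on the plus strand in GPX3. SELENOW and SELENOH, both small proteins of a thioredoxin-like family with a CxxU motif, have the cysteine codons tgt and tgc 3 codons before it. GPX1 and GPX3, the cellular and the secreted glutathione peroxidase, have gcg and gcc there. The codon after it is ggc in SELENOW, GPX1 and GPX3 and cgc in SELENOH. Of the 63 bases, 32 were identical between GPX1 and GPX3 and 30 between SELENOW and GPX3. SELENOH shared 22 with each of the other 3, and SELENOW shared 20 with GPX1.

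The codon lies before the middle of each coding sequence and ahead of at least 1 exon junction. It is codon 13 of 87 in SELENOW, codon 44 of 122 in SELENOH, codon 49 of 203 in GPX1 and codon 73 of 226 in GPX3. In SELENOW it lies in exon 2 of 6, and 243 bases separate it from the last exon junction. In SELENOH it lies in exon 2 of 4, 267 bases before the last junction, and in GPX3 in exon 2 of 5, 240 bases before it. GPX1 has 2 exons, and its codon lies in the first of them, 105 bases before the single junction. All 4 codons thus lie more than 55 bases ahead of the last junction, the distance taken here as the limit of the rule for nonsense-mediated decay. The first selenocysteine codon was likewise more than 55 bases ahead in 11 of the 21 selenoprotein genes outside the table. GPX4 is among these 11, with 342 bases, more than in any of the 4. Of the remaining 10 genes, 2 have a single exon, 5 have the codon in the last exon and 3 have it ahead of the last junction by less.

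**Figure D1:**
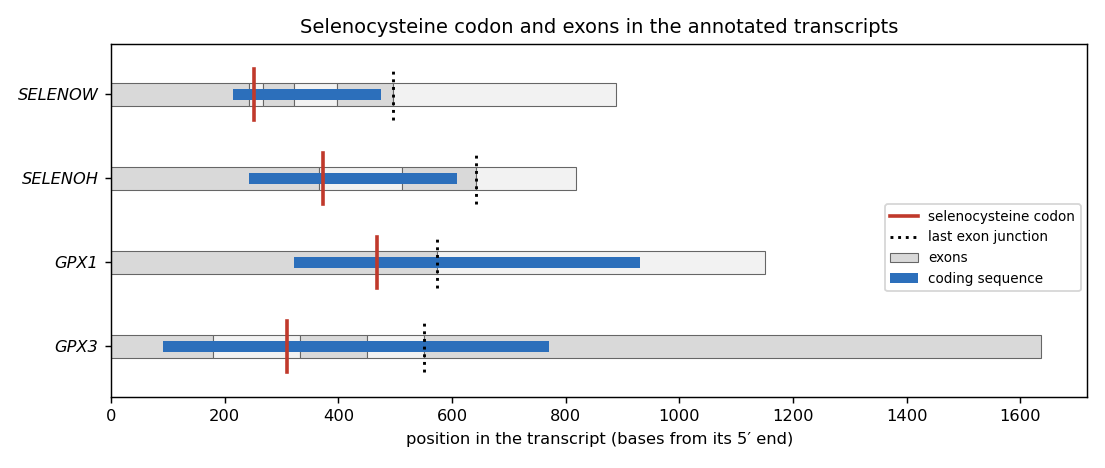
Annotated transcripts of the 4 genes drawn to scale, with position in bases from the 5′ end on the x axis, exons in alternating greys, coding sequence in blue, the selenocysteine codon in red and the last exon junction dotted. The codon lies ahead of the last junction in each, by 105 bases in GPX1 and by 240 to 267 bases in the other 3.

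All 4 genes were lower in serum-deprived cells, SELENOW by the most. Relative to controls, its message stood at 40.8%, that of SELENOH at 61.0%, that of GPX3 at 63.3% and that of GPX1 at 65.5%. All 4 passed as lower in edgeR's quasi-likelihood test, in a table where 48.1% of genes did so (adjusted p below 0.05, Benjamini-Hochberg, whole table). Those were 90 genes, where 94 genes had a log2 fold change below 0. The authors chose the table on this same contrast, so these calls are no independent evidence of direction. In bulk RNA, fewer cells expressing a gene and less of its RNA per cell cannot be told apart. The labels do not say whether replicates were separate cultures, so the p-values measure only the spread between these libraries, which may be technical.

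SELENOW, on chromosome 19 from 47778572 to 47784686 on the plus strand, encodes a small selenoprotein of the cytosol that is abundant in muscle and brain. Its scaled counts were 1074, 1039.9, 998 and 1112 in serum-deprived replicates 1 to 4, against 2982, 2474, 2404 and 2486 in control replicates 1 to 4. The serum-deprived libraries lay close together, far below each control, and control replicate 1 stood above the other controls. The mean was 1056 ± 48.3 in serum-deprived cells and 2587 ± 266 in controls (SD, n = 4 each). The log2 fold change from edgeR was -1.29 ± 0.12 (SE), with an adjusted p of 2.72e-05.

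SELENOH, on chromosome 11 from 57741250 to 57743554 on the plus strand, encodes a nucleolar redox protein. It had scaled counts of 1337, 837, 921 and 806 in serum-deprived replicates 1 to 4, against 2120.15, 1441, 1401 and 1430.45 in control replicates 1 to 4. Replicate 1 was the highest library of either group, and the highest serum-deprived value lay just below the lowest control. The mean was 975 ± 246 in serum-deprived cells and 1598 ± 348 in controls (SD, n = 4 each). In edgeR this was a log2 fold change of -0.71 with an SE of 0.20 and an adjusted p of 0.00846.

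GPX1, on chromosome 3 from 49357171 to 49358600 on the minus strand, encodes the cytosolic and mitochondrial glutathione peroxidase, which reduces hydrogen peroxide with glutathione. Its scaled counts were 1604, 1027, 1063 and 869 in serum-deprived replicates 1 to 4, against 2203, 1501, 1591 and 1669 in control replicates 1 to 4. Serum-deprived replicate 1 was above control replicates 2 and 3, so the groups overlapped, although each serum-deprived library was below the control of its own number. The mean was 1141 ± 320 in serum-deprived cells and 1741 ± 316 in controls (SD, n = 4 each). Its log2 fold change was -0.61 with an SE of 0.20, and edgeR gave an adjusted p of 0.0182. That call was lost in 4 of 19 alternatives, over which the adjusted p ran from 0.000161 to 0.0822. In edgeR the adjusted p was 0.0545 when libraries were scaled by TMM, 0.0822 when they were scaled by median-of-ratios factors and 0.0532 when serum-deprived replicate 4 was left out, and DESeq2 gave 0.0770.

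GPX3, on chromosome 5 from 151020438 to 151028993 on the plus strand, encodes the secreted glutathione peroxidase of plasma, which is made mainly in the kidney. Its scaled counts were 80.2, 61.9, 55.8 and 61.4 in serum-deprived replicates 1 to 4, against 98.4, 112, 105 and 92.8 in control replicates 1 to 4. The groups did not overlap, and serum-deprived replicate 1 was the closest to the controls. The mean was 64.8 ± 10.6 in serum-deprived cells and 102 ± 8.38 in controls (SD, n = 4 each). The fall amounted to -0.66 ± 0.17 on the log2 scale (SE), with an adjusted p of 0.00569 in edgeR. With estimated counts of 52 to 68 in the serum-deprived libraries and 88 to 136 in the controls, GPX3 was the least deeply covered of the 4. Counting error alone gives a coefficient of variation of about 12.9% in serum-deprived cells and 9.50% in controls at these counts, near the 16.4% and 8.20% observed. For GPX1 the observed 28.1% and 18.1% far exceeded the 3.07% and 2.32% of counting error.

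**Figure D2:**
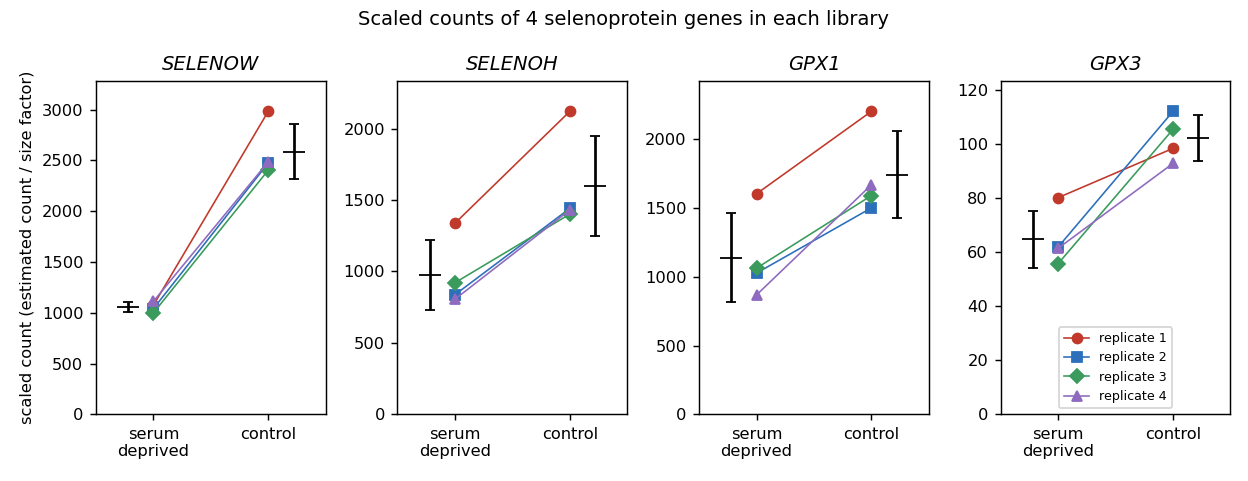
Scaled counts (estimated count divided by size factor, linear axis from 0) of each gene in the 4 serum-deprived libraries at the left and the 4 control libraries at the right of each panel, with lines joining libraries of the same number and black bars for mean ± SD. SELENOW libraries lie between 998 and 1112 after serum deprivation and between 2404 and 2982 in controls, while replicate 1 is the highest line for SELENOH and GPX1.

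Within the numbered pairs, all 4 genes were lower in serum-deprived cells in 4 of 4 pairs, as were 44.4% of the tabulated genes. This held under each of the 6 scalings tried. The groups did not overlap for 3 of the 4 genes, against 40.1% of the tabulated genes that were lower without overlap. The table also holds genes selected as higher, and only 94 genes had a log2 fold change below 0. In the whole table, 83 genes were lower in all 4 pairs and 75 were lower without overlap. Neither result therefore sets the 4 genes apart from the other genes that fell. SELENOW was free of overlap under all 6 scalings. SELENOH overlapped with TMM scaling and with median-of-ratios size factors, GPX3 with median-of-ratios size factors, and GPX1 was free of overlap only without scaling and with column totals. SELENOW retained 36.0%, 42.0%, 41.5% and 44.7% of the control level in pairs 1 to 4. SELENOH retained 63.1%, 58.1%, 65.7% and 56.3% in those pairs. The corresponding values were 72.8%, 68.4%, 66.8% and 52.0% for GPX1. GPX3 retained 81.5%, 55.2%, 52.9% and 66.2%. SELENOW fell furthest in each pair, and the order of the other 3 was the same in pairs 2 and 3 (GPX3, SELENOH, GPX1) and differed in pairs 1 and 4.

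**Figure D3:**
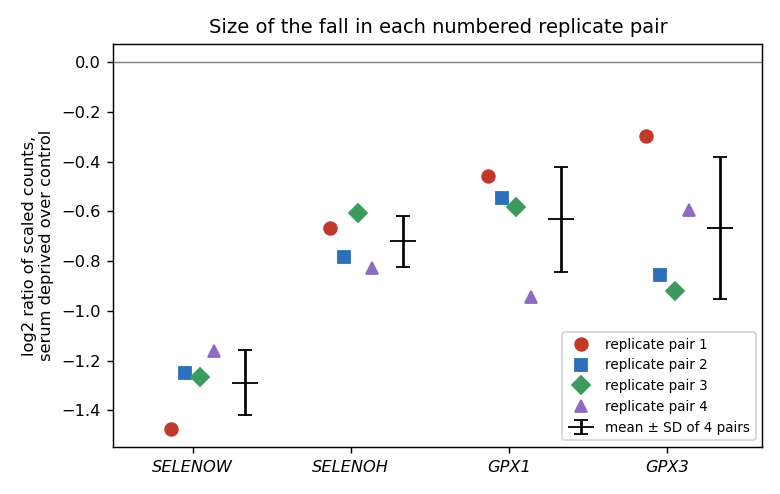
Log2 ratio of scaled counts, serum deprived over control, for each gene (x axis) in each of the 4 numbered replicate pairs, with the mean ± SD of the pairs in black. SELENOW lies between -1.47 and -1.16, below every value of SELENOH (-0.83 to -0.61), GPX1 (-0.94 to -0.46) and GPX3 (-0.92 to -0.30).

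The sizes of the falls were compared between genes through the ratio of their estimated counts within a library, which does not depend on the scaling between libraries. Of the 6 pairs of genes, the 3 that contain SELENOW shifted without overlap between the groups. The log2 ratio of SELENOW to SELENOH was 0.14 ± 0.34 in serum-deprived cells and 0.71 ± 0.15 in controls (SD, n = 4 each), a difference of -0.57 ± 0.18 (SE). For SELENOW to GPX1 the difference was -0.66 ± 0.20, and for SELENOW to GPX3 it was -0.62 ± 0.15 (SE). Each of the 3 had an exact two-sided permutation p of 0.0286, the smallest that 4 against 4 libraries allow. Adjusted over the 6 pairs, that permutation p was 0.0571, which misses the threshold of 0.05. Given the p-values of the other 3 pairs, no lower adjusted p was possible for these 3. The larger fall of SELENOW appeared in 4 of 4 numbered pairs in all 3 comparisons, with differences of -0.81 to -0.33 on the log2 scale against SELENOH, -1.02 to -0.22 against GPX1 and -1.18 to -0.35 against GPX3. The difference was widest in pair 1 in each of these. An edgeR fit of the whole table with library sizes set to the counts of the second gene was added after the data had been seen. It gave adjusted p-values of 0.0308 for SELENOW against SELENOH, 0.0237 against GPX1 and 0.00602 against GPX3 over all other tabulated genes. That adjustment runs over genes selected as changed, so it is not comparable with the one over the 6 pairs. The fit also takes the counts of the second gene as free of counting error.

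Among SELENOH, GPX1 and GPX3 no difference in the size of the fall was detected. SELENOH minus GPX1 was -0.09 ± 0.06 on the log2 scale (SE), with an exact 97.1% interval from -0.24 to 0.11 and an adjusted p of 0.300 in the exact permutation test. SELENOH minus GPX3 was -0.05 ± 0.19, with an interval from -0.72 to 0.38, and GPX3 minus GPX1 was -0.03 ± 0.20, with an interval from -0.58 to 0.66 (exact permutation test, adjusted p = 0.886 for both). Both intervals with GPX3 are wide and include a difference as large as that between SELENOW and SELENOH, so these values do not show that GPX3 fell to the same extent.

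**Figure D4:**
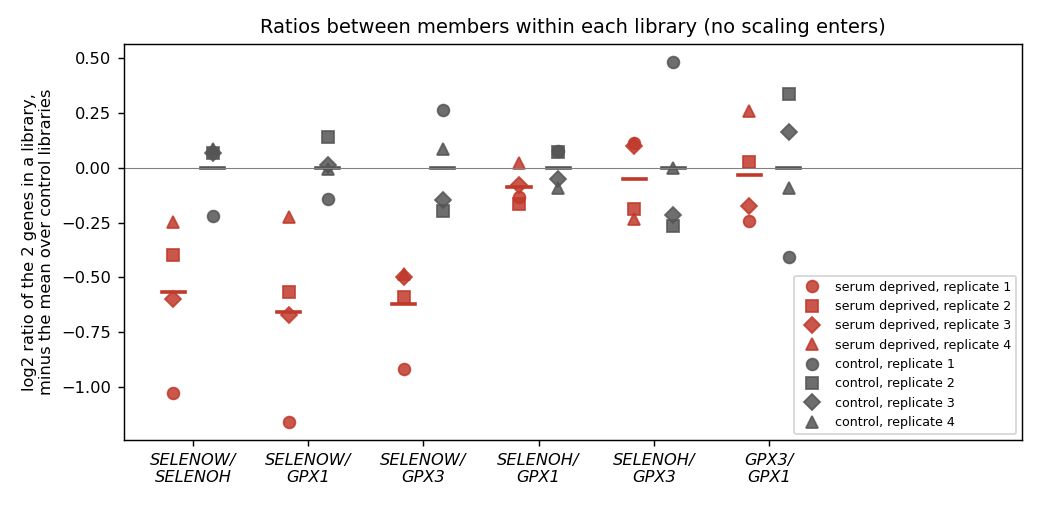
Log2 ratio of the counts of 2 genes within a library (y axis), less its mean over the control libraries, for the 6 pairs of genes (x axis), with serum-deprived libraries in red at the left and controls in grey at the right of each pair, and bars for group means. The groups do not overlap in the 3 ratios with SELENOW, and they overlap in the other 3, where SELENOH/GPX1 has the narrowest spread.

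SELENOH and GPX1 moved together from library to library. The ratio of SELENOH to GPX1 counts was 0.834, 0.815, 0.866 and 0.928 in serum-deprived replicates 1 to 4, against 0.962, 0.960, 0.881 and 0.857 in control replicates 1 to 4. Their counts therefore kept within about the same proportion while each varied widely between libraries. Both were highest in replicate 1 of either group, whereas SELENOW was raised in replicate 1 only among the controls. Likeness was measured as the root mean square difference over the 8 libraries of log2 scaled counts, each relative to the mean of the gene's controls. By this measure GPX1 was the nearest of all tabulated genes to SELENOH (0.0956), and SELENOH was the second nearest to GPX1. The nearest to GPX1 was TESC, which encodes the calcium-binding protein tescalcin (0.0860), and TESC was second nearest to SELENOH (0.102). TFPI2, a Kunitz-type protease inhibitor, came next for SELENOH (0.107) and FLYWCH2 for GPX1 (0.161). The median over all other tabulated genes was 0.841 for SELENOH and 0.820 for GPX1.

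The other members stood further from SELENOW. The genes nearest to SELENOW were FITM1, an endoplasmic reticulum protein of lipid droplet formation (0.156), RBP5, a cellular retinol-binding protein (0.232), and CFI, the complement factor I protease (0.243). Their log2 fold changes were -1.14, -1.25 and -0.97. SELENOH, GPX3 and GPX1 came 50th, 56th and 68th in that order for SELENOW. GPX3 was nearest to UNC5B, a netrin receptor (0.116), LY6E, a GPI-anchored surface protein (0.126), and FLYWCH2 (0.139), which was also among the 3 nearest to GPX1. SELENOH was 26th and GPX1 27th in nearness to GPX3 (0.240 and 0.242), and GPX3 was 14th in nearness to SELENOH and 12th to GPX1.

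The promoters of SELENOH and GPX1 are shown because these 2 genes tracked each other. They come from RefSeq (GRCh38.p14) and run 5′ to 3′ along the gene, from 250 bases before its RefSeq start to 50 after it. They cover chr11:57741241-57741540 on the plus strand and chr3:49358304-49358603 on the minus strand. Capitals mark the palindrome CACGTG, known as the E-box. The GENCODE annotation used above places the gene starts at 57741250 (SELENOH) and 49358600 (GPX1), near the 5′ end of each window. By that annotation most of each window, with its CACGTG, lies inside the gene and not upstream of it.
SELENOH: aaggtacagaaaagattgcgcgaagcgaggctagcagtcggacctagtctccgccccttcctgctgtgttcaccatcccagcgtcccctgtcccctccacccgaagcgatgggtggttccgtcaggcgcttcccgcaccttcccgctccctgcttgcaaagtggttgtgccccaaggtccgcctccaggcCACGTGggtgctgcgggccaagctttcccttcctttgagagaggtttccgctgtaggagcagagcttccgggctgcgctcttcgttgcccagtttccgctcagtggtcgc
GPX1: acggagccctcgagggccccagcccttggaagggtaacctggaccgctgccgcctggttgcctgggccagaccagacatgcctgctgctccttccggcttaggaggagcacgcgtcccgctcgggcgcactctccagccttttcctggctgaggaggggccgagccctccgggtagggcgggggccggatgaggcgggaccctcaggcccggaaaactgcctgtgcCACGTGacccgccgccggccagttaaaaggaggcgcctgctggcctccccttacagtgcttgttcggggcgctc
Of the 5 motifs searched on both strands in the 4 promoters, CACGTG was present once in SELENOH and once in GPX1 and was not found in the windows of SELENOW and GPX3, and 7.26% of all 35116 promoters hold it. The antioxidant response element, searched as TGACNNNGC and held by 13.3% of promoters, and TATAAA, held by 11.5%, were in none of the 4 windows. GGGCGG was in all 4 (3 times in SELENOW, once in each of the others) and is held by 45.0% of promoters. CCAAT was in those of SELENOW (once) and GPX3 (2 times), against 34.6% of promoters. These matches are letters in a window placed by the RefSeq start, and binding was not measured. In SELENOW and GPX3 too, the GENCODE gene start falls inside the window. Whether TESC, nearest of all to GPX1 and second nearest to SELENOH, holds CACGTG was not examined.

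Against the rest of the table, the fall of SELENOW ranked 11th of the 94 genes with a log2 fold change below 0, and those of SELENOH, GPX3 and GPX1 ranked 68th, 77th and 82nd. The median of these 94 genes was -0.81 on the log2 scale, so SELENOW fell by more than the median and the other 3 by less. The authors' deposited table gives log2 fold changes of -1.18 for SELENOW, -0.75 for GPX3, -0.69 for SELENOH and -0.64 for GPX1, with FDRs of 3.55e-70, 0.0222, 2.35e-13 and 1.86e-07. Over the whole list, log2 ratios computed from replicates 2 to 4 alone departed from those in the authors' deposited table by a constant offset with a scatter of 0.0143 (SD), whereas ratios from all 8 libraries scattered by 0.188. The replicate 1 pair, which that closer match leaves out, had log2 ratios of -1.47 for SELENOW, -0.67 for SELENOH, -0.46 for GPX1 and -0.30 for GPX3. All 4 genes were lower in that pair as well, which is 1 library per group and has no replicate check. The table was selected on fold changes that followed replicates 2 to 4 most closely, so p-values from those libraries are no independent evidence of change. Without replicate 1 of both groups, the log2 fold changes were -1.23 for SELENOW, -0.74 for SELENOH, -0.69 for GPX1 and -0.80 for GPX3. Their edgeR adjusted p-values were 1.38e-06 to 0.000660. SELENOW then differed by -0.49 from SELENOH, -0.54 from GPX1 and -0.44 from GPX3, each with an adjusted p of 0.200 in the exact permutation test, where 3 against 3 libraries allow no unadjusted p below 0.1.

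**Figure D5:**
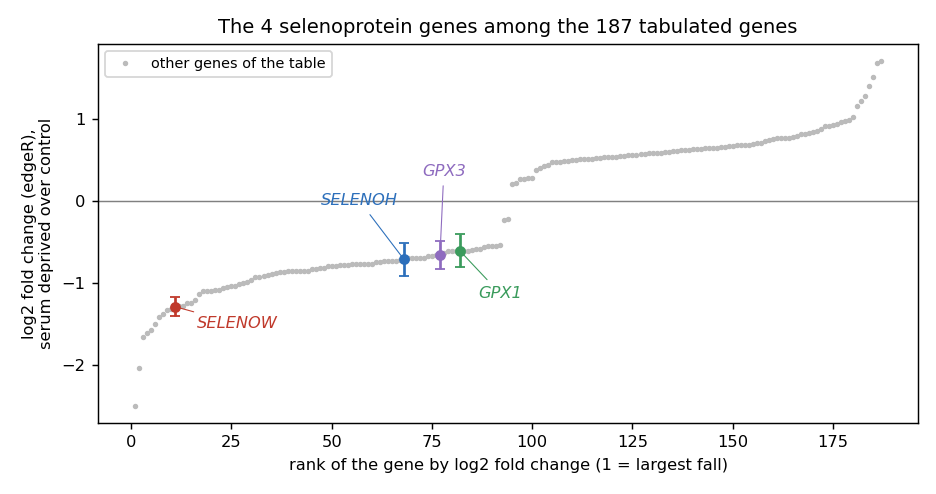
Log2 fold change from edgeR (y axis, serum deprived over control) of all tabulated genes by rank (x axis), with the 4 selenoprotein genes coloured and bars for ± SE. SELENOW is at -1.29 and rank 11, and the other 3 lie between -0.71 and -0.61 at ranks 68 to 82.

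In selenium-deficient rats and mice, Gpx1 mRNA is known as one of the most sensitive selenoprotein messages, Selenow and Selenoh mRNA are also counted as sensitive, and Gpx4 and Txnrd1 mRNA change little. Set beside that order, 3 of the 4 tabulated genes (SELENOW, SELENOH and GPX1) are ones counted as sensitive in rodents. GPX3 is given no place in the order as stated here, which does not mean that it is insensitive. How many of the 25 listed selenoprotein genes count as sensitive was not assessed, so the count has no share to be read against. GPX4 and TXNRD1 were not in the table, which holds only genes selected as changed. Within the 4, GPX1 did not fall furthest in any pair. It had rank 3 in pair 1, rank 4 in pairs 2 and 3 and rank 2 in pair 4. SELENOW had rank 1 in all 4 pairs. The difference between SELENOW and GPX1 missed the threshold (exact permutation test, adjusted p = 0.0571). It could have passed only if a pair of genes without SELENOW had also reached the smallest p. The rodent order as stated does not rank SELENOW, SELENOH and GPX1 against each other. The ranks found here can therefore show neither a match with that order nor a departure from it. Serum, insulin and transferrin were also removed here, so that order was not tested. Of the lists of related genes, none of the 16 genes for selenocysteine synthesis, insertion and selenium transport, the 8 of nonsense-mediated decay, the 26 redox enzymes without selenocysteine, the 11 of transferrin and iron and the 13 of the insulin response was in the table. The absence of a gene from a table of selected genes does not show that it was unchanged.

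The values of SELENOW, SELENOH and GPX1 carry an uncertainty from reads shared with other genes. GPX3 had whole counts in all 8 libraries (within 0.01), and none of the 1606 words of 31 bases in its transcript occurs in a transcript of another gene in GENCODE 29. The other 3 did not have whole counts. In GPX1, 30.5% of 1121 words recur elsewhere, 312 of them in the processed pseudogene GPX1P1 on chromosome X and 139 in GPX1P2 on chromosome 21, some of them in both. In SELENOH, 22.5% of 788 words recur, all 177 in the gene AP001931.1, with words matched on either strand. In SELENOW, 24 of 858 words, or 2.80%, recur in the pseudogene SELENOWP1. GENCODE 29 types the GPX1 locus as a polymorphic pseudogene. The part of shared reads in the sizes of the falls was not tested.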

How the data were processed

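Stranded single-end reads of 76 bases came from polyadenylated RNA, per the labels' protocols. A single table was deposited by the authors, holding selected genes with estimated counts per library, a log2 fold change and an FDR (adjusted p-value), per the file headers. Its name states the limits as a mean of 30, FDR 0.1 and 1.5-fold. The submitters' processing notes name cutadapt, FastQC, kallisto, edgeR and GRCh38, without versions. There were 0 columns of other samples, and depth is unknown.

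Size factors within a group were median ratios to the geometric mean of its libraries (pseudocount 0.5). Between groups, the widest empty interval of log2 ratios with at least 20 genes on each side (-0.43 to 0.00) was centred on 0, since only changed genes were tabulated. The factors were 0.846 to 1.21, and a scaled count is the estimated count divided by its factor. Rounded counts were tested, two-sided and without covariates, in edgeR 4.0.16 (R 4.3.3), after tests on simulated data. Ratios between members were compared with exact permutation tests, and the 97.1% interval spans the 16 differences between a serum-deprived and a control library. Alternatives were DESeq2 1.42.0, limma-voom (limma 3.58.1), other scalings, unrounded counts, a minimum mean of 100, a replicate block and omission of libraries. scipy 1.17.1 ran under Python 3.11.15.

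Members, lists and the rule for named genes (members, the 3 genes nearest to each, tabulated list genes) were chosen with earlier results of these data known. The numbers were taken to pair the libraries. Deviations from the group means correlated at 0.216, 0.377, 0.111 and 0.122 within replicates 1 to 4 (0.138, 0.364, 0.0709 and 0.0706 without the pseudocount). Libraries of different number were not correlated in this way, so these values do not show a pairing, which remains an assumption. No libraries of a group were duplicates. Transcripts were chosen by annotated selenocysteine, APPRIS rank, support level and length.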

Additional observations from a re-analysis of the deposited data

Results flagged for a closer look

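Control replicate 1 stood apart from the other 3 controls for 2 genes, by the gap to its nearest neighbour relative to the range of the group. Its scaled count was 2982 for SELENOW, where the gap took up 0.858 of the range, and 2120.15 for SELENOH, where it took up 0.945, above the 95% critical value of Dixon's test for 4 libraries in both cases. Of the 8 groups of values examined for the 4 genes, these 2 passed, where chance flags about 1 in 20. Replicate 1 was also the highest serum-deprived library for SELENOH, GPX1 and GPX3.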

How the results depend on the processing

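SELENOW, SELENOH and GPX3 kept their direction and their side of the threshold under all alternatives run, with log2 fold changes of -1.49 to -1.14, -0.91 to -0.55 and -0.88 to -0.50. GPX3 has no value at a minimum mean of 100, since its mean is lower. GPX1 kept its direction (-0.82 to -0.45) and lost its call with TMM scaling (-0.59), with median-of-ratios size factors and in DESeq2 (-0.45 in both), and without serum-deprived replicate 4 (-0.50). Over the omissions of 1 library, the log2 fold changes were -1.33 to -1.22 for SELENOW, -0.90 to -0.55 for SELENOH, -0.82 to -0.48 for GPX1 and -0.78 to -0.59 for GPX3. With the replicate block they were -1.29, -0.72, -0.63 and -0.67, and the block changed no call of a member. The median of all genes moved by 0.15 with median-of-ratios size factors and by -0.20 without scaling.

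Genes past the threshold numbered 159, 69 higher and 90 lower. They were 91 with a minimum mean of 100 (36 higher and 55 lower), where 107 genes were tested, 21 higher and 91 lower without scaling, and, scaled by median-of-ratios factors, 80 higher and 74 lower. Over the omissions of 1 library they were 133 to 173 (53 to 82 higher, 78 to 91 lower), and 162 with the replicate block. With both replicate 1 libraries omitted, 93 passed as higher and 94 as lower, the whole table. The authors' fold changes followed the remaining libraries most closely, so the selection of the table favours this count, which is no independent evidence of change.

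Among the differences between members, the 3 with SELENOW kept their sign under all alternatives run. With library sizes set to the second gene, an alternative added after the data had been seen, they were -0.55, -0.62 and -0.62 against SELENOH, GPX1 and GPX3. They then passed in edgeR, with adjustment over the other tabulated genes and not over the pairs of members. The exact sign-flip test over the numbered pairs, a replicate block for these ratios, gave p = 0.13 for each of the 3, the smallest that 4 pairs allow. Over the omissions of 1 library, SELENOW differed by -0.67 to -0.41 from SELENOH, by -0.80 to -0.49 from GPX1 and by -0.69 to -0.52 from GPX3, while SELENOH minus GPX1 was -0.12 to -0.06. SELENOH minus GPX3 changed sign among these (-0.14 to 0.11) and was 0.052 without replicate 1 of both groups, and GPX3 minus GPX1 changed sign too (-0.17 to 0.077); the cause was not tested. Counts of 52 to 136 limit the precision for GPX3.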
